A study of Mus musculus with 18 samples.

Results

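The proteasome genes are the 50 genes whose name in the authors' deposited tables begins with Psma, Psmb, Psmc, Psmd, Psme, Psmf or Psmg followed by a digit, out of 22619 genes in the count table. The rule uses the names alone. By role they are 8 genes of the α ring and 7 of the constitutive β ring of the core particle, 3 catalytic subunits of the immunoproteasome, 1 of the thymoproteasome, 17 subunits of the regulatory particle, 5 alternative activators, 1 inhibitor and 7 assembly chaperones. The remaining gene, Psmc3ip, matches the name only: it encodes a partner of meiotic recombinases and no proteasome subunit.

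Wild-type mouse thymi were grafted, and 28 days later thymocytes were sorted from the grafts for RNA sequencing. The groups were CD4 and CD8 double-positive (DP) thymocytes in autonomy (5 libraries) and in turnover (4 libraries), and DN3 thymocytes in autonomy (5 libraries) and in turnover (4 libraries). DN3 cells are the double-negative stage at which the T-cell receptor β chain is rearranged and tested, and DP cells are the stage that follows. In turnover, progenitors from outside replace the thymocytes of the graft, and in autonomy the thymus keeps T-cell development going without them. The sources used here do not give the hosts, strains, ages or sex. Library names carry numbers such as RP1140, and in turnover the libraries A and B of RP1140 and of RP1141 share one. Since no label ties each library to an animal of its own, a p-value here speaks only of the spread between libraries, which may be technical in part.

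The proteasome is the protease that degrades ubiquitin-tagged proteins in the cytosol and nucleus. Its barrel-shaped core is built of rings of α subunits, which gate the entry, around rings of β subunits, some of which cut peptides, and the regulatory particle that caps it recognises tagged proteins, removes the ubiquitin and unfolds them. In lymphocytes and in cells exposed to interferon, the catalytic subunits Psmb5, Psmb6 and Psmb7 can be replaced by Psmb8, Psmb9 and Psmb10, which form the immunoproteasome and favour peptides for display on MHC class I. Cortical thymic epithelium builds its own variant with Psmb11.

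Depth ran from 5032273 to 24191044 counts per library. The DP markers Cd4, Cd8a, Cd8b1, Cd5 and Cd69 were higher in DP than in DN3 libraries in both conditions, and Il2ra, Ptcra, Notch1 and Erg were lower, while Rag1 and Rag2 were higher. Library RP1141B of DN3 turnover held more DP transcript than the others of its group: Cd8a was at 385 CPM there (the share of a library's counts that fell on a gene, on one scale for all libraries) and at 2.53 to 7.34 CPM in the other 3, and Cd8b1 at 615 CPM and at 6.99 to 24.7 CPM in the other 3. Library RP1140B of DN3 turnover had the lowest summed CPM of proteasome genes in its group, 14882 against up to 21562. Library RP1135 of DN3 autonomy had the lowest summed CPM of the proliferation list in its group, 12486 against 15365 to 16201, and the highest Epcam, 82.1 CPM against 28.8 to 41.3. The DN3 marker Dntt was lower in autonomy than in turnover in both cell types.

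Proteasome transcripts were most abundant in DN3 cells in autonomy. The 50 genes together took between 1.42 and 1.65% of all counts in DP autonomy libraries, 1.20 to 1.42% in DP turnover, 2.20 to 2.47% in DN3 autonomy and 1.54 to 2.09% in DN3 turnover. After scaling of the libraries by the trimmed mean of M values (TMM), their summed CPM was 14572 ± 1104 in DP autonomy, 11736 ± 894 in DP turnover, 26191 ± 2066 in DN3 autonomy and 19038 ± 3026 in DN3 turnover (SD). The lowest DN3 autonomy library, at 23351 CPM, lay above the highest DN3 turnover library, at 21562 CPM. The lowest DP autonomy library, at 13738 CPM, also lay above the highest DP turnover library, at 13039 CPM. In bulk RNA, more transcript per cell and more cells that carry it cannot be told apart.

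**Figure D1:**
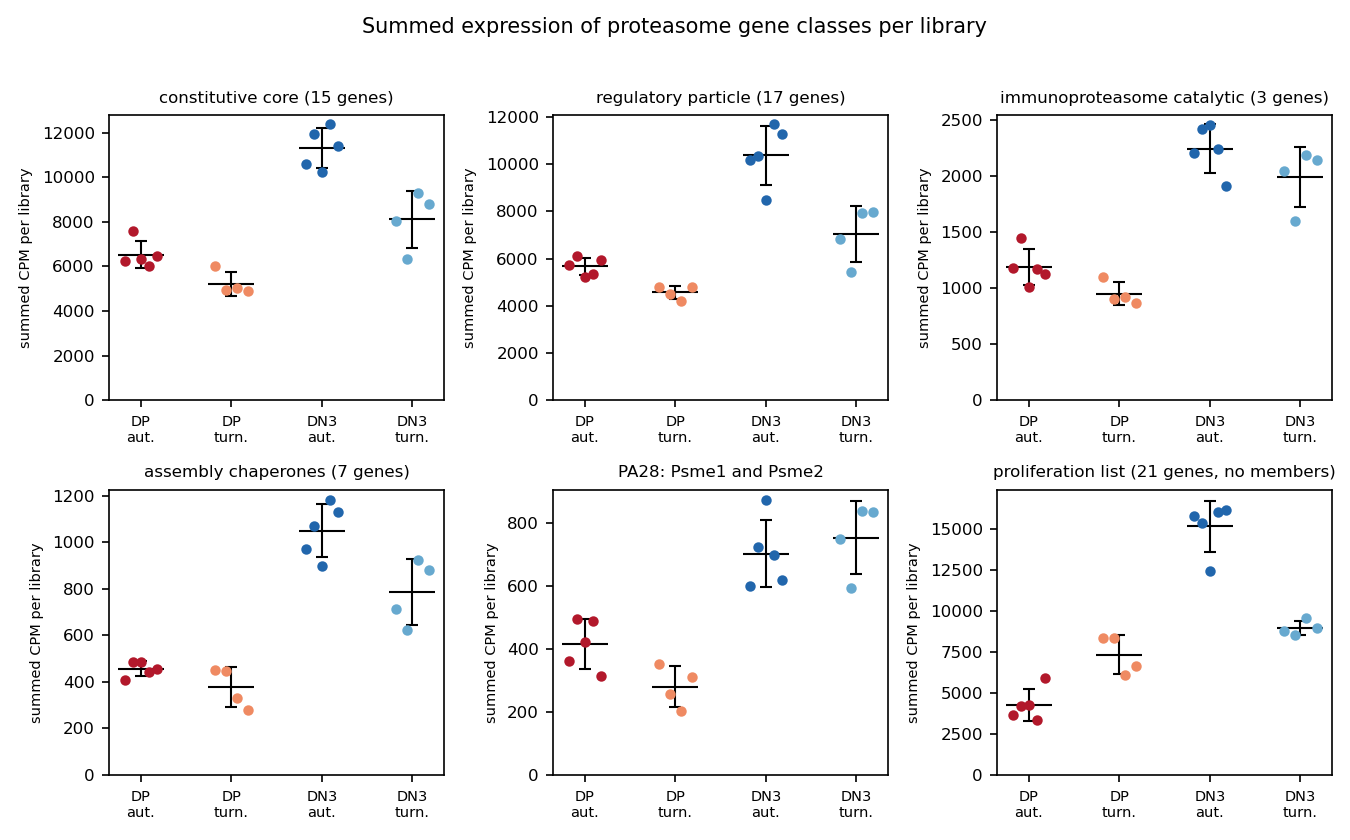
Summed TMM-scaled CPM per library (y axis, linear, from 0) of 5 classes of proteasome genes and, at the lower right, of a proliferation list that holds no proteasome gene, in DP autonomy, DP turnover, DN3 autonomy and DN3 turnover libraries; points are libraries, and bars give the mean and SD. The regulatory particle sum averaged 10379 CPM in DN3 autonomy and 7043 CPM in DN3 turnover, while the PA28 sum of Psme1 and Psme2 averaged 702 and 753 CPM in the same groups.

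The constitutive core genes spanned a few-fold range of levels. Per kilobase of the longest principal transcript, the highest of the 14 constitutive core genes other than Psma8 exceeded the lowest by 4.54-fold in DP autonomy, 3.62-fold in DP turnover, 3.03-fold in DN3 autonomy and 3.06-fold in DN3 turnover. For the 17 regulatory particle genes this ratio was 4.91 and 4.15-fold in DP, and 3.44 and 3.25-fold in DN3, autonomy first. Psma6 had the highest mean level among all 50 genes in DP cells, at 814 CPM per kilobase in autonomy and 619 in turnover. In DN3 autonomy the highest was Psma7, at 1208 CPM per kilobase. In DN3 turnover it was the immunoproteasome gene Psmb8, at 971 CPM per kilobase.

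Subunits of the regulatory particle were present at lower levels than those of the core, with a median of 318 against 564 CPM per kilobase in DN3 autonomy and 191 against 327 in DP autonomy. Assembly chaperones, which act on the particle only while it is built, were lower still, at a median of 99.9 CPM per kilobase in DN3 autonomy with Psmd10 left out. Replicates lay closer together for the median proteasome gene than for the median gene. Among genes with a mean of at least 10 CPM the median coefficient of variation was 14.5% for the members and 25.4% for all genes in DP autonomy. It was 16.6 and 24.5% in DP turnover, 13.7 and 19.7% in DN3 autonomy, and 19.4 and 21.3% in DN3 turnover. Members and all genes were not matched for level, and the part of level in this difference was not tested.

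**Figure D2:**
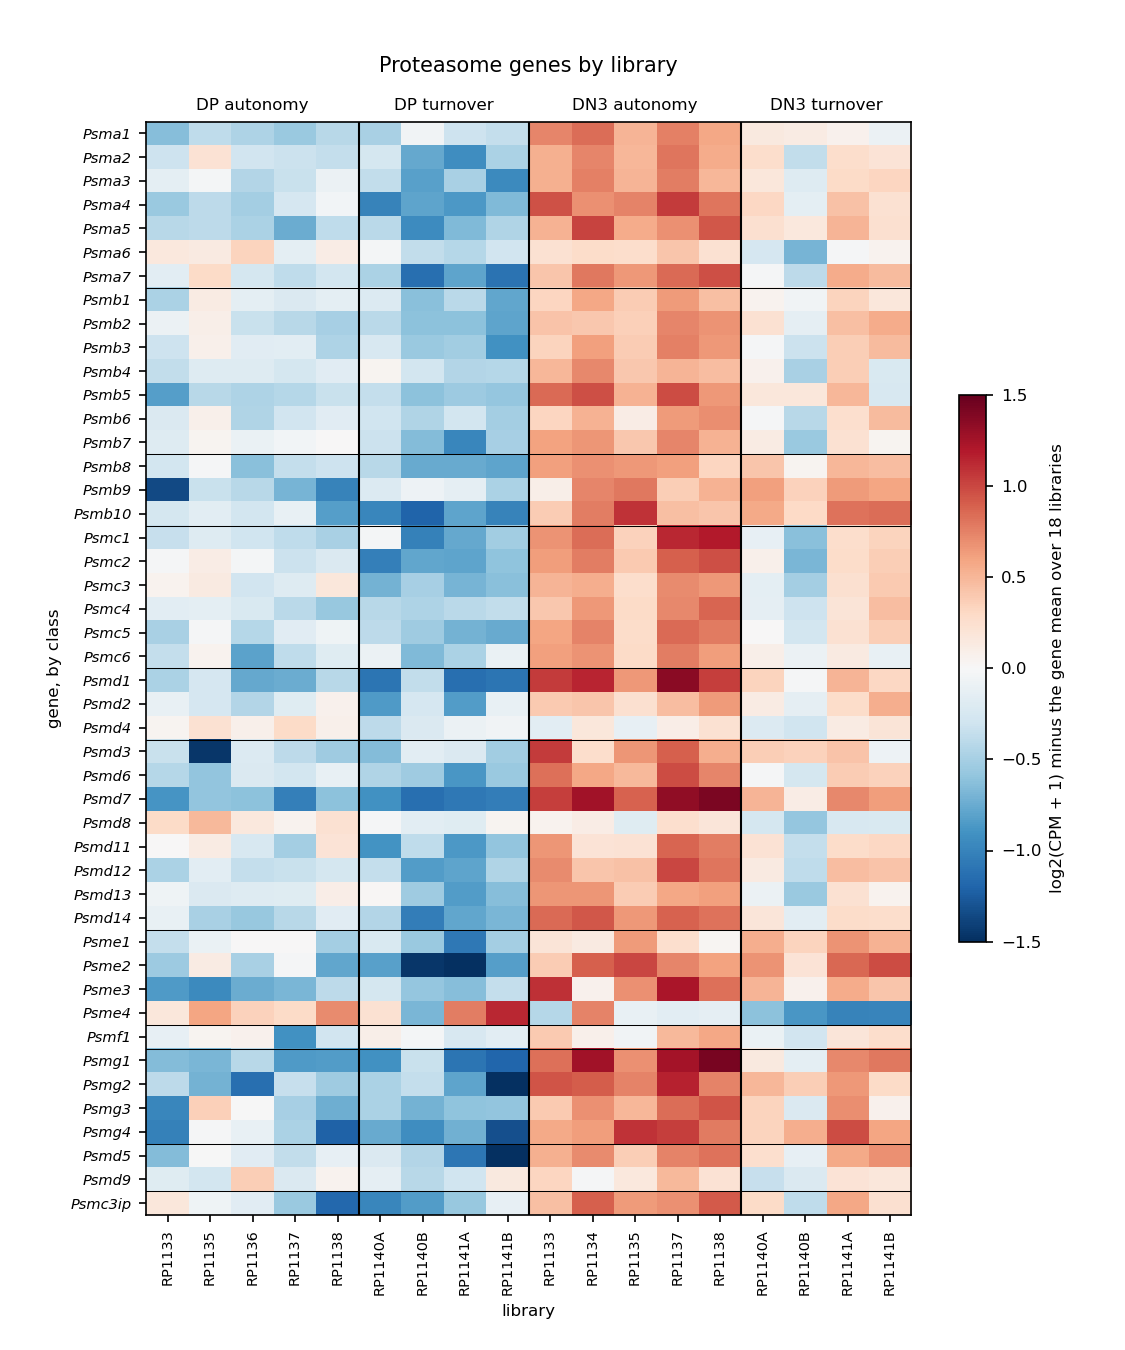
Each row is 1 of 46 proteasome genes (the sparsely counted Psma8, Psmb11, Psmd10 and Psme2b are left out) and each column a library; colour gives log2(CPM + 1) minus the mean of the gene over the 18 libraries, limited to 1.5 either way. Most rows are highest in the DN3 autonomy block, and Psme4 is higher in DP than in DN3 turnover.

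In DN3 thymocytes, autonomy came with higher levels of several subunits of the core and of the regulatory particle. Of 47 proteasome genes that passed the count filter, 14 rose, none fell and 33 did not pass the threshold (edgeR quasi-likelihood test, Benjamini-Hochberg adjusted p under 0.05 over 10766 genes). Over all genes tested 14.9% were called, 6.53% higher and 8.35% lower. The median log2 change of the members was 0.46, against -0.05 over all genes, and 43 of 47 were above 0. In 20 of the members all 5 autonomy libraries lay above all 4 turnover libraries, against 8.27% of all genes, and in no member did they all lie below, against 10.1%.

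The regulatory particle held most of these genes, with 9 of 17 subunits higher and a median log2 change of 0.56. Psmd14, the deubiquitinase of the lid, had 809, 861, 709, 835 and 796 CPM in the DN3 autonomy libraries and 511, 403, 544 and 540 CPM in the DN3 turnover libraries. The groups did not overlap, and the log2 change was 0.67 ± 0.14 (SE, adjusted p = 0.00829). Its partner in the lid, Psmd7, rose by 0.68 on the log2 scale, and the lid subunits Psmd13 and Psmd6 rose by 0.64 and 0.59. The call of Psmd6 held in 10 of 16 alternatives, and those of Psmd7 and Psmd13 in 14 each. Exons of Psmd13 overlap those of Sirt3 on the opposite strand by 342 bases, and the sources used here do not say whether reads were counted by strand.

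Psmd1, a large scaffold of the base on which the ubiquitin receptor Adrm1 docks, had 888, 942, 669, 1096 and 875 CPM in DN3 autonomy and 538, 422, 609 and 528 CPM in DN3 turnover. All autonomy libraries were above all turnover libraries, with a log2 change of 0.76 ± 0.17 (adjusted p = 0.0107). Its exons share 553 bases with Gm21972 and Htr2b. The ATPases of the base, which unfold the substrate and thread it into the core, contributed 4 of 6 calls. Psmc6 had 972, 1013, 774, 1075 and 975 CPM in DN3 autonomy and 674, 597, 698 and 584 CPM in DN3 turnover, again without overlap, and rose by 0.58 ± 0.14 (adjusted p = 0.0164). Psmc1, Psmc2 and Psmc5 rose by 0.85, 0.67 and 0.56 on the log2 scale, Psmc5 with overlap between the groups. These 3 calls held in 11 (Psmc1), 7 (Psmc2) and 7 (Psmc5) of 16 alternatives. Psmd4, a ubiquitin receptor of the base, stood apart with a log2 change of 0.07 ± 0.16 that did not pass (adjusted p = 0.787).

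In the core particle 4 of 15 constitutive genes rose, and 14 of 15 had a log2 change above 0. Psma1, an α subunit, had 1084, 1166, 925, 1098 and 972 CPM in DN3 autonomy and 719, 710, 683 and 615 CPM in DN3 turnover. The lowest autonomy library was thus well above the highest turnover library, and the log2 change was 0.61 ± 0.13 (adjusted p = 0.00986). Psma4, of the same ring, had 694, 575, 597, 738 and 620 CPM in autonomy and 442, 322, 482 and 418 CPM in turnover. It rose by 0.62 ± 0.15 without overlap (adjusted p = 0.0166). The other 2 were the catalytic subunits Psmb5 and Psmb7, described with their immunoproteasome partners.

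Promoter sequences of 42 of the 50 members were found in the RefSeq table of GRCm38.p6, from 250 bases before to 50 bases after the start. The antioxidant-response core TGACNNNGC, the site type of the factors Nfe2l1 and Nfe2l2 known to drive proteasome genes, was present on either strand in 6 of 42 (14.3%; exact 95% interval 5.43 to 28.5%) and in 14.0% of 27025 genes. CCAAT was present in 35.7% of the members and 41.1% of all genes, the γ-activated site TTCNNNGAA in 7.14 and 9.55%, and the core of the interferon-stimulated response element in 11.9% (interval 3.98 to 25.6%) and 3.99%. In the 150 bases before the start that interferon core was present in 2.38% of the members and 1.85% of all genes. A match is a description of the letters in this window and does not show that a factor binds.

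Of the 12 genes raised in DN3 autonomy that have a promoter in the table, 3 hold TGACNNNGC (Psmb5, Psmc6 and Psme4), as do 3 of 27 that did not pass (Psmb6, Psmd9 and Psmd12). The bases from -150 to -31, counted from the RefSeq start, of 3 genes raised in DN3 autonomy are shown, with the antioxidant-response core in capitals for Psmb5 (chr14:54618026-54618145, minus strand), and CCAAT or its reverse complement ATTGG in capitals for Psma1 (chr7:114276147-114276266, minus strand). Psmd14 (chr2:61711544-61711663, plus strand), the gene called in all alternatives of the DN3 comparison, has no match of the 4 motifs in this stretch. In the full window Psmd14 does hold CCAAT or its reverse complement, from -159 to -155 and after the start.
Psmb5: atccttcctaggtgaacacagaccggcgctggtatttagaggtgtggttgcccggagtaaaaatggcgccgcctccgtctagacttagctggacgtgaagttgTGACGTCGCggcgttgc
Psma1: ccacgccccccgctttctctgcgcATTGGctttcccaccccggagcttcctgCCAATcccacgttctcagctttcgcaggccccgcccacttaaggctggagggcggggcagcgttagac
Psmd14: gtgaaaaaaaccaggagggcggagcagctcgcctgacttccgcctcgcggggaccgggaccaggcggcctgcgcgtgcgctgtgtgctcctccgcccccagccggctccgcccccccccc

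Psme4, which encodes the nuclear activator PA200, a cap that opens the core without ubiquitin recognition, had 76.7, 175, 96.3, 92.9 and 94.8 CPM in DN3 autonomy and 67.6, 56.2, 51.3 and 51.6 CPM in DN3 turnover. The autonomy libraries were all higher, with library RP1134 far above the rest of them, and the log2 change was 0.91 ± 0.24 (adjusted p = 0.0229). The call of Psme4 held in 12 of 16 alternatives. Of the 6 assembly chaperones tested none passed and all 6 were above 0, Psmg1, a chaperone of the α ring, at 0.68 ± 0.22 (adjusted p = 0.0568). At an unadjusted p under 0.05 the count over all 47 members was 30, against 31.4% of all genes.

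The calls in DN3 cells depended on how the turnover libraries were counted. With the A and B libraries of one number summed, which leaves 2 turnover samples, Psmd14 was the 1 member called, against 4.51% of all genes, while the median log2 change was 0.44 and 43 of 47 members were above 0. Leaving out 1 library gave 6 calls without turnover RP1140A, 8 without turnover RP1140B, 8 without autonomy RP1137 and 9 without autonomy RP1138, and the share called over all genes was lower in the same fits, at 7.43, 10.7, 8.91 and 9.93%. Without RP1140B the median was 0.35. Without RP1141B, the turnover library with more DP transcript, there were 15 calls (12.9% of all genes), and without autonomy RP1135 there were 17 (16.7%). Psmd14 passed the threshold in all 16 alternatives run. The authors' deposited table of DN3 cells calls 23 of 48 proteasome genes higher in autonomy and 0 lower at an adjusted p under 0.05, where it calls 8.96% of all genes higher and 10.3% lower, and all 14 genes above are among them.

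**Figure D3:**
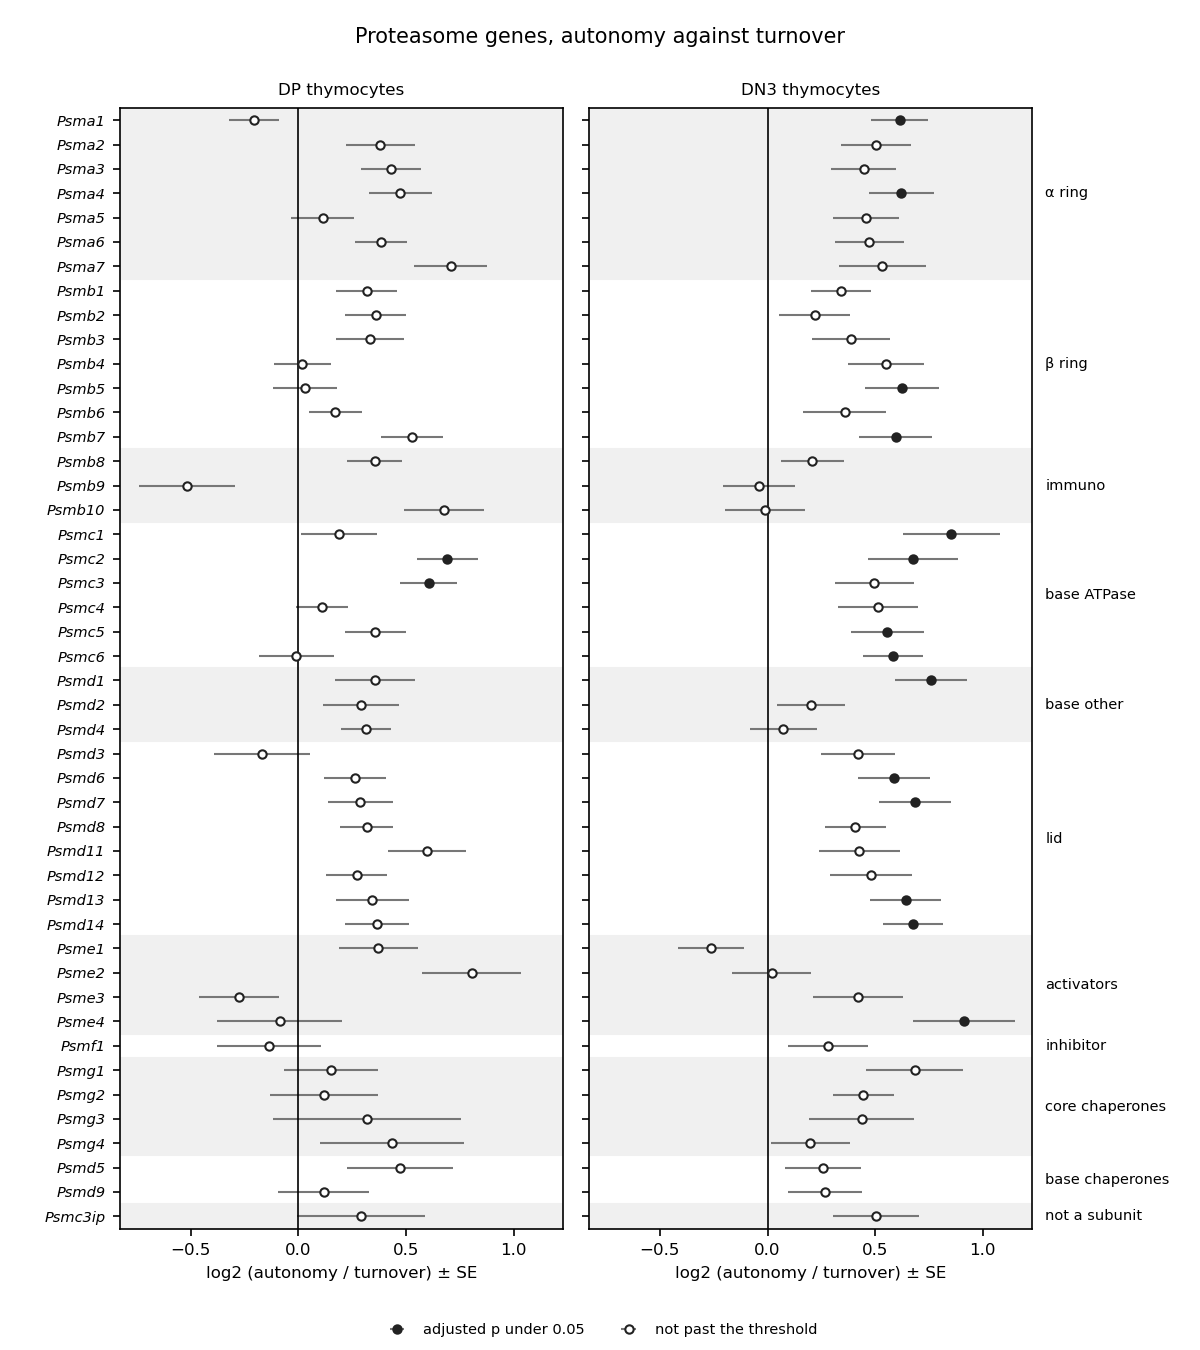
Log2 change of autonomy over turnover with its standard error (x axis) for 46 proteasome genes grouped by role (y axis), in DP thymocytes on the left and DN3 thymocytes on the right; filled points passed an adjusted p of 0.05. In DN3 cells the filled points lie in the core and in the regulatory particle, and at Psme4, while Psmb9, Psmb10 and Psme2 lie near 0; in DP cells Psmc2 and Psmc3 are filled.

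The catalytic subunits were compared as pairs, the constitutive gene with the immunoproteasome gene that takes its place. Psmb5, the chymotrypsin-like subunit, had 407, 442, 325, 446 and 353 CPM in DN3 autonomy and 254, 254, 320 and 191 CPM in DN3 turnover, without overlap, and rose by 0.62 ± 0.17 (adjusted p = 0.0278). Its partner Psmb8 had 1878, 1967, 1927, 1877 and 1534 CPM in DN3 autonomy and 1635, 1260, 1735 and 1691 CPM in DN3 turnover. The call of Psmb5 held in 11 of 16 alternatives. The groups overlapped for Psmb8, and its log2 change of 0.21 ± 0.15 did not pass (adjusted p = 0.354; 95% interval -0.08 to 0.50).

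Psmb7, the trypsin-like subunit, had 530, 548, 458, 578 and 499 CPM in DN3 autonomy and 378, 235, 406 and 356 CPM in DN3 turnover and rose by 0.59 ± 0.17 (adjusted p = 0.0329), a call that held in 8 of 16 alternatives. Its partner Psmb10 had 192, 250, 313, 201 and 196 CPM in DN3 autonomy and 219, 180, 259 and 264 CPM in DN3 turnover. For Psmb10 the groups overlapped widely, with a log2 change of -0.01 ± 0.19 (adjusted p = 0.978; 95% interval -0.37 to 0.35). Exons of Psmb7 overlap those of Nek6 on the opposite strand by 405 bases.

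Psmb6, the caspase-like subunit, had 680, 782, 586, 847 and 879 CPM in DN3 autonomy and 537, 405, 645 and 754 CPM in DN3 turnover, and its log2 change of 0.36 ± 0.19 did not pass (adjusted p = 0.222). Psmb9, its partner, had 131, 204, 212, 158 and 177 CPM in DN3 autonomy and 189, 156, 191 and 186 CPM in DN3 turnover, with a log2 change of -0.04 ± 0.17 (adjusted p = 0.897). Both overlapped between the groups. Psmb9 lies at chr17:34181987-34187764 (GRCm38, minus strand) in the MHC region beside Psmb8 at chr17:34197721-34201454 (plus strand), which shares 498 exon bases with Gm20496 on the opposite strand. The exons of Psmb9 overlap those of the peptide transporter gene Tap1 by 212 bases on the opposite strand, so its counts can hold reads of Tap1, whose own log2 change was -0.56 ± 0.19 (adjusted p = 0.0670).

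None of the 3 immunoproteasome genes passed in DN3 cells, where 4 of 15 constitutive core genes did. The difference between the classes was not tested. Per kilobase, Psmb8 exceeded Psmb5 in every library, with a mean ratio of 3.46 in DP autonomy (range 2.69 to 4.41), 2.71 in DP turnover (2.60 to 2.90), 2.60 in DN3 autonomy (2.32 to 3.27) and 3.55 in DN3 turnover (2.74 to 4.90). Psmb9 was below Psmb6 in every library, with a mean ratio of 0.0938 in DP autonomy (range 0.0594 to 0.136), 0.150 in DP turnover (0.137 to 0.173), 0.142 in DN3 autonomy (0.110 to 0.213) and 0.189 in DN3 turnover (0.145 to 0.227). The mean ratio of Psmb10 to Psmb7 was 0.316 in DP autonomy (range 0.209 to 0.357), 0.295 in DP turnover (0.236 to 0.426), 0.397 in DN3 autonomy (0.307 to 0.604) and 0.603 in DN3 turnover (0.513 to 0.679). So the pair at the chymotrypsin-like site had more transcript of the immunoproteasome gene, and the other pairs more of the constitutive gene. The ranges of DN3 autonomy and DN3 turnover overlapped for all 3 ratios, for Psmb10 to Psmb7 through library RP1135 alone: the other 4 autonomy libraries, at 0.307 to 0.404, lay below all turnover libraries.

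**Figure D4:**
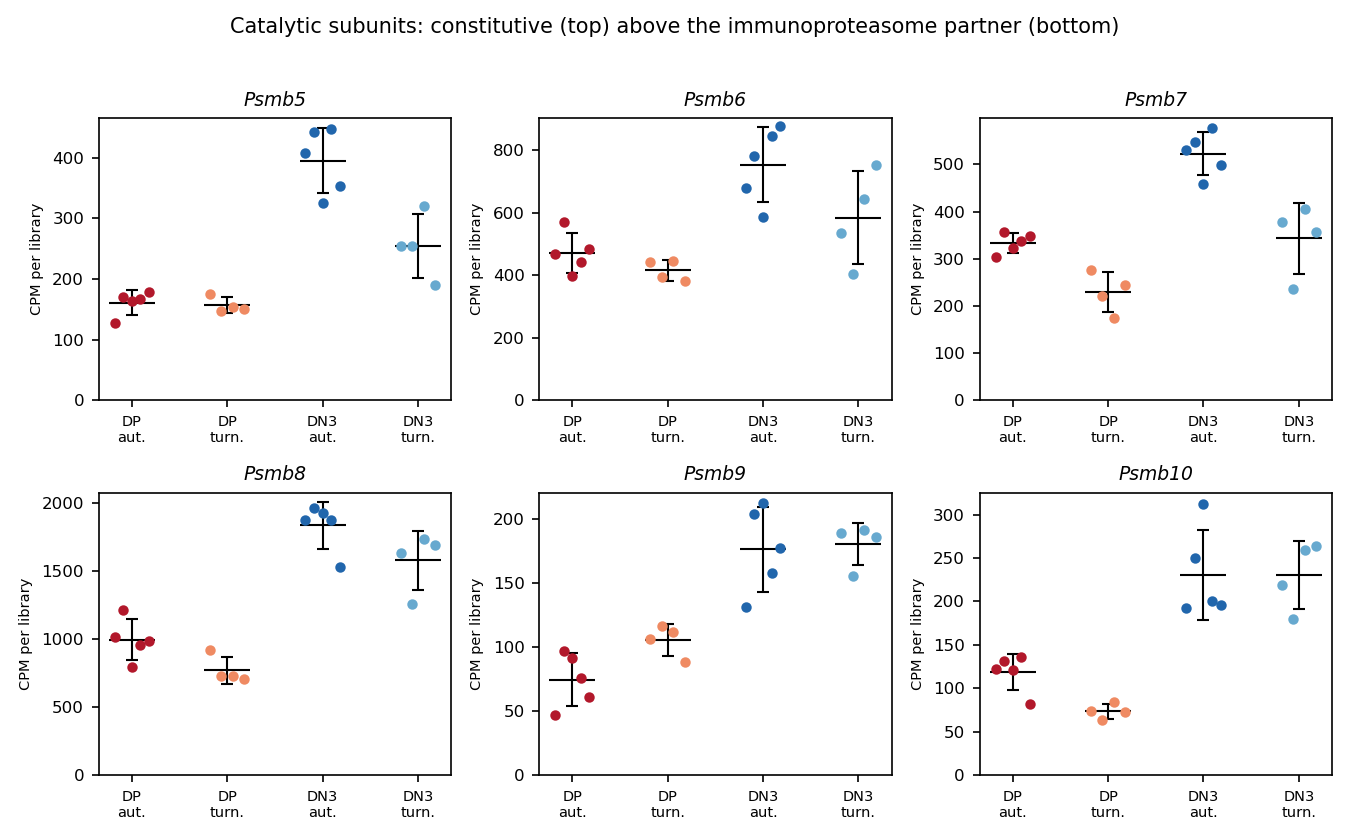
TMM-scaled CPM per library (y axes, linear, from 0, each gene on its own scale) of the constitutive catalytic genes Psmb5, Psmb6 and Psmb7 (top) and of Psmb8, Psmb9 and Psmb10, which replace them in the immunoproteasome (bottom); points are libraries and bars the mean and SD. Psmb5 and Psmb7 show DN3 autonomy libraries above all DN3 turnover libraries, whereas Psmb9 and Psmb10 overlap there.

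Psme1 and Psme2 encode the subunits of PA28, the interferon-induced cap that opens the core for peptide production. Psme1 had 288, 276, 390, 298 and 256 CPM in DN3 autonomy and 365, 316, 399 and 359 CPM in DN3 turnover (log2 change -0.26 ± 0.15, adjusted p = 0.254). Psme2 had 312, 447, 480, 398 and 364 CPM in DN3 autonomy and 384, 276, 438 and 474 CPM in DN3 turnover (log2 change 0.02 ± 0.19, adjusted p = 0.959). Both overlapped between the groups. Psme3, whose product forms the nuclear PA28 variant, had 258, 126, 194, 281 and 214 CPM in autonomy and 172, 126, 177 and 161 CPM in turnover, with a log2 change of 0.42 ± 0.21 (adjusted p = 0.186). Psmf1, which encodes the inhibitor PI31, had 77.2, 61.9, 56.5, 82.4 and 87.7 CPM in autonomy and 54.4, 47.9, 66.7 and 70.3 CPM in turnover and did not pass (log2 change 0.28 ± 0.19, adjusted p = 0.323).

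Some genes that work beside the proteasome were called in DN3 cells, where 6.53% of all genes were called higher and 8.35% lower. Of 12 further subunits and cofactors 1 rose, Usp14, a deubiquitinase that binds the base, by 0.59 ± 0.17 (adjusted p = 0.0359), and none fell. Of 5 tested ubiquitin and E1 genes and of 9 genes for shuttles and the segregase Vcp none passed. In class I antigen processing Canx, a chaperone of the endoplasmic reticulum, rose by 0.58 ± 0.15 (adjusted p = 0.0241) and B2m, the light chain of class I molecules, fell, at -0.76 ± 0.20 (adjusted p = 0.0265), while 7 of 9 did not pass. Of 8 interferon regulators Ifngr1 fell, at -0.67 ± 0.19 (adjusted p = 0.0358), and none rose. The proliferation list moved with the proteasome genes: 19 of its 21 genes rose, among them Mcm5, Ccne2 and Cdk1, and its summed CPM was 15195 ± 1548 in DN3 autonomy and 8967 ± 434 in DN3 turnover. Markers of some other cells were lower in DN3 autonomy. Those of NK cells summed to 6.09 to 65.2 CPM in autonomy and 113 to 162 CPM in turnover. Those of macrophages summed to 1.86 to 13.4 CPM in autonomy and 17.9 to 36.4 CPM in turnover. Erythroid markers overlapped, at 1.77 to 6.24 CPM in autonomy and 2.87 to 5.69 CPM in turnover. Of the NK and macrophage lists 1 marker each passed the count filter (Nkg7 and Lyz2) and was called lower. A sparse marker can pass through the libraries where it is high, so these calls are no test. The part of proliferation and of these other cells in the proteasome values was not tested.

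In DP thymocytes most members again had log2 changes above 0, and few passed the test. Of 46 members tested 2 rose and none fell, where 1.72% of 10339 genes were called, 0.861% in each direction. The median log2 change of the members was 0.32, against -0.02 over all genes, and 39 of 46 were above 0. All 5 autonomy libraries lay above all 4 turnover libraries in 8 members, against 4.24% of all genes, and in none did they all lie below, against 3.97%. The count at an unadjusted p under 0.05 was 19, against 17.1% of all genes.

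Both genes called in DP cells encode ATPases of the base. Psmc2 had 321, 351, 318, 261 and 279 CPM in DP autonomy and 160, 189, 188 and 213 CPM in DP turnover, and rose by 0.69 ± 0.14 (adjusted p = 0.0301). Psmc3 had 490, 520, 389, 416 and 535 CPM in DP autonomy and 289, 336, 293 and 307 CPM in DP turnover, and rose by 0.61 ± 0.13 (adjusted p = 0.0376). Neither gene overlapped between the groups, and Psmc2 was also among the 14 called in DN3 cells. Exons of Psmc3 overlap those of Slc39a13 on the opposite strand by 215 bases.

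Neither call held when the A and B libraries were summed, which left 0 calls, nor when turnover RP1140B, RP1141A or RP1141B or autonomy RP1133 or RP1135 was left out, which also left 0. Without autonomy RP1136 1 of the 2 was still called, and without turnover RP1140A 1 other member was. DESeq2 called 10 members and limma voom 6, all higher in autonomy, where they called 7.12 and 4.20% of all genes. The authors' deposited table of DP cells calls 8 of 47 members higher and 0 lower, where it calls 3.93% of all genes higher and 3.73% lower, Psmc2 and Psmc3 among them.

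Of the 5 genes of the immunoproteasome and PA28 4 had log2 changes above 0 in DP cells, Psmb9 was below 0, and none passed with edgeR. Psmb10 and Psme2 were called higher with DESeq2, with limma voom and in the authors' deposited table. So were the core genes Psma7 and Psmb7. Psmb8 had 1013, 1216, 794, 958 and 986 CPM in DP autonomy and 921, 728, 727 and 709 CPM in DP turnover (log2 change 0.35 ± 0.13, adjusted p = 0.174). Psmb10 had 122, 132, 121, 136 and 82.3 CPM in autonomy and 73.8, 63.2, 84.3 and 72.9 CPM in turnover (log2 change 0.68 ± 0.19, adjusted p = 0.0835), with autonomy library RP1138 inside the turnover range. Psmb9 had 47.1, 96.7, 91.3, 75.4 and 60.6 CPM in autonomy and 106, 116, 111 and 88.1 CPM in turnover (log2 change -0.52 ± 0.22, adjusted p = 0.258).

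The 2 subunits of PA28 had log2 changes of 0.37 ± 0.18 for Psme1 and 0.81 ± 0.23 for Psme2 (adjusted p = 0.328 and 0.0878). Psme2 had 165, 261, 170, 237 and 140 CPM in DP autonomy and 136, 86.3, 84.0 and 135 CPM in DP turnover, and all autonomy libraries were higher. Psme1 had 196, 234, 251, 252 and 176 CPM in autonomy and 214, 170, 118 and 176 CPM in turnover, with overlap. Macrophages and dendritic cells are rich in immunoproteasome. Macrophage markers summed to 16.2 to 125 CPM in DP autonomy and 2.47 to 27.2 CPM in DP turnover. Dendritic cell markers summed to 7.10 to 181 CPM in autonomy and 5.94 to 18.6 CPM in turnover. Of each list 4 of 7 markers passed the count filter, and 1 of them, the macrophage marker C1qc, was called higher. A sparse marker can pass the filter through the libraries where it is high, so this call is no test. The part of macrophages and dendritic cells in the values of Psmb10 and Psme2 was not tested.

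With edgeR no constitutive catalytic gene and no other cap was called in DP cells. Psmb5 had 127, 169, 163, 167 and 179 CPM in DP autonomy and 176, 146, 154 and 150 CPM in DP turnover, a log2 change of 0.03 ± 0.15 (95% interval -0.26 to 0.32). Psmb6 had 468, 571, 397, 444 and 483 CPM in autonomy and 442, 396, 446 and 381 CPM in turnover (log2 change 0.17 ± 0.12). Psmb7 had 303, 357, 323, 338 and 348 CPM in autonomy and 277, 220, 175 and 245 CPM in turnover, without overlap (log2 change 0.53 ± 0.14, adjusted p = 0.0814). Of the 3 genes Psmb7 came nearest to the threshold, and DESeq2, limma voom and the authors' deposited table called it higher.

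Psme3 had 66.0, 61.4, 71.2, 74.2 and 91.2 CPM in DP autonomy and 99.3, 79.8, 76.5 and 93.7 CPM in DP turnover (log2 change -0.27 ± 0.19). Psme4 had 117, 157, 132, 127 and 170 CPM in autonomy and 122, 64.3, 177 and 229 CPM in turnover (log2 change -0.09 ± 0.29). Psmf1 had 53.6, 60.3, 61.3, 30.7 and 47.6 CPM in autonomy and 62.0, 57.1, 49.3 and 52.5 CPM in turnover (log2 change -0.13 ± 0.24). All 3 overlapped between the groups. Of the proliferation list 5 of 21 genes fell in DP cells, none rose and all 21 had a log2 change below 0. Its summed CPM was 4275 ± 991 in DP autonomy and 7355 ± 1168 in DP turnover. The part of proliferation in the proteasome values of DP cells was not tested. Among the interferon regulators Irf9 rose by 1.58 ± 0.34 (adjusted p = 0.0362), the 1 call of that list. No gene was called among ubiquitin genes, shuttles and class I antigen processing genes, and of the 12 cofactors 1, Ecpas, fell. Over all genes 0.861% were called in each direction in DP cells.

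The difference between the autonomy effects of DP and DN3 cells was tested for 48 members in a model of all 18 libraries, where 5.49% of 11521 genes were called, 2.88% higher and 2.61% lower in DP. Psma1 was the 1 member called: its autonomy effect in DP minus that in DN3 cells was -0.82 ± 0.16 on the log2 scale (adjusted p = 0.00584). It had 419, 502, 473, 443 and 487 CPM in DP autonomy and 465, 626, 527 and 509 CPM in DP turnover, a log2 change of -0.21 ± 0.12 that did not pass (adjusted p = 0.404), beside the rise in DN3 cells given above. With the library number as a block the difference for Psma1 was -0.77 and did not pass (adjusted p = 0.0676). For the other 47 the difference did not pass in the model without a block. There 11 of the 48 had an unadjusted p under 0.05, a share near the 19.9% of all genes. The median difference was -0.17, against 0.06 over all genes, and -0.05 when library RP1140B of DN3 turnover was left out. Of the proliferation list 19 of 21 genes had a lower autonomy effect in DP than in DN3 cells, and its part in these differences was not tested.

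Proteasome genes were lower in DP than in DN3 cells in both conditions. In autonomy 41 of 48 members tested were lower and none higher, where 49.0% of all genes were called, 23.7% higher and 25.2% lower in DP. In turnover 37 were lower and 1 higher, where 34.9% were called, 15.8% higher and 19.1% lower. Without Psma8, which had no read in DP turnover and passed the filter through the other groups, 36 of 47 were lower. The median log2 change of the members was -0.89 in autonomy and -0.75 in turnover, against medians near 0 over all genes (0.00 and -0.04). No DP library reached any DN3 library in 39 members in autonomy, against 20.8% of all genes, and in 27 in turnover (26 without Psma8), against 19.7%. The autonomy comparison uses the same DN3 autonomy libraries in which many of these genes were raised over turnover.

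Psmd7, the scaffold that holds the deubiquitinase Psmd14 in the lid, had 153, 189, 185, 139 and 185 CPM in DP autonomy and 587, 681, 525, 717 and 760 CPM in DN3 autonomy. This was the largest difference among the called members in autonomy, a log2 change of -1.94 ± 0.14 (adjusted p = 1.97e-09). In turnover Psmd7 had 151, 130, 135 and 138 CPM in DP and 405, 306, 468 and 438 CPM in DN3 (log2 change -1.55 ± 0.16, adjusted p = 5.57e-07). Psma1 was lower in DP too, with log2 changes of -1.17 ± 0.11 in autonomy and -0.36 ± 0.12 in turnover (adjusted p = 4.00e-08 and 0.0271). Its turnover call held in 13 of 25 alternatives.

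In autonomy, Psmd1 had 308, 358, 250, 255 and 319 CPM in DP, against the DN3 values above, and a log2 change of -1.58 ± 0.17 (adjusted p = 2.68e-07). Psma5 had 279, 282, 267, 222 and 284 CPM in DP autonomy and 535, 751, 547, 595 and 705 CPM in DN3 autonomy (log2 change -1.23 ± 0.14, adjusted p = 3.62e-07). Psma4 had 242, 271, 250, 299 and 345 CPM in DP autonomy and 177, 205, 195 and 225 CPM in DP turnover, with log2 changes against DN3 of -1.20 ± 0.13 in autonomy and -1.05 ± 0.15 in turnover (adjusted p = 4.36e-07 and 2.36e-05). All 3 genes were below every DN3 library in autonomy.

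Immunoproteasome and PA28 genes, whose values per library stand above, were lower in DP in both conditions. Psmb10 had a log2 change of DP over DN3 of -0.96 ± 0.17 in autonomy and -1.65 ± 0.20 in turnover (adjusted p = 2.97e-06 in turnover). Psme2 had -1.04 ± 0.20 in autonomy and -1.83 ± 0.23 in turnover (adjusted p = 6.18e-06 in turnover), and Psmb8 -0.89 ± 0.13 in autonomy and -1.03 ± 0.14 in turnover (adjusted p = 1.77e-05 in turnover). Psmb9 had -1.24 ± 0.18 in autonomy and -0.77 ± 0.20 in turnover, and Psme1 -0.44 ± 0.16 and -1.08 ± 0.18 in the same order. All 10 of these values passed the threshold.

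Psme4 was the exception. In turnover it had 122, 64.3, 177 and 229 CPM in DP and 67.6, 56.2, 51.3 and 51.6 CPM in DN3, and it rose in DP by 1.39 ± 0.30 (adjusted p = 0.00138), although DP library RP1140B, at 64.3 CPM, lay inside the DN3 range. In autonomy, where its DN3 level was higher, the log2 change of 0.40 ± 0.26 did not pass (adjusted p = 0.231). Psme3 was lower in DP, with log2 changes of -1.56 ± 0.19 in autonomy and -0.86 ± 0.21 in turnover. Psmf1 was lower in autonomy, with a log2 change of -0.53 ± 0.20 (adjusted p = 0.0315), a call that held in 15 of 25 alternatives, and did not pass in turnover (-0.11 ± 0.22).

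The remaining calls are given by class as log2 changes of DP over DN3. In the α ring in autonomy they were -0.82 for Psma2, -0.81 for Psma3 and -0.89 for Psma7, and in turnover -0.70 for Psma2, -0.80 for Psma3, -0.89 for Psma5 and -1.06 for Psma7. In the β ring in autonomy they were -0.64 for Psmb1, -0.76 for Psmb2, -0.75 for Psmb3, -0.76 for Psmb4, -1.29 for Psmb5, -0.67 for Psmb6 and -0.65 for Psmb7. In turnover the β ring values were -0.62 for Psmb1, -0.90 for Psmb2, -0.70 for Psmb3, -0.70 for Psmb5, -0.49 for Psmb6 and -0.58 for Psmb7, and Psmb4 did not pass (-0.23). Every subunit of the β ring was thus lower in DP in autonomy. The turnover call of Psmb6 held in 14 of 25 alternatives.

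Among the ATPases the values in autonomy were -1.21 for Psmc1, -0.83 for Psmc2, -0.56 for Psmc3, -0.90 for Psmc4, -0.89 for Psmc5 and -0.91 for Psmc6. In turnover they were -0.85 for Psmc2, -0.67 for Psmc3, -0.50 for Psmc4 and -0.69 for Psmc5, while Psmc1 and Psmc6 did not pass (-0.54 and -0.32). So all 6 ATPases were lower in DP in autonomy and 4 of 6 in turnover. The turnover call of Psmc4 held in 18 of 25 alternatives. The autonomy call of Psmc3 held in 24 and was lost with the replicate block. In the rest of the base the values for Psmd2 were -0.61 in autonomy and -0.71 in turnover, and Psmd1 had -1.18 in turnover. In the lid in autonomy they were -1.24 for Psmd3, -1.05 for Psmd6, -0.63 for Psmd11, -1.01 for Psmd12, -0.70 for Psmd13 and -1.17 for Psmd14. In turnover the lid values were -0.65 for Psmd3, -0.73 for Psmd6, -0.81 for Psmd11, -0.80 for Psmd12 and -0.87 for Psmd14, and Psmd13 did not pass (-0.40). The turnover call of Psmd3 held in 19 of 25 alternatives. Psmd8 was the 1 lid subunit of 8 not called lower in autonomy.

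Chaperones of the core were lower in DP as well. Psmg1 had -1.81 in autonomy and -1.28 in turnover, Psmg2 -1.51 and -1.19, Psmg3 -1.03 and -0.91, and Psmg4 -1.35 and -1.59 in the same order. Psmd5, a chaperone of the base, had -0.89 in autonomy and -1.11 in turnover, and the meiotic gene Psmc3ip -1.03 and -0.82. All of these passed the threshold in the main fit. The turnover call of Psmg3 held in 11 of 25 alternatives and that of Psmc3ip in 20.

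Psma6, Psmd4, Psmd8 and Psmd9 did not pass in either condition. Psma6 had 848 ± 98.5 CPM in DP autonomy and 945 ± 53.6 CPM in DN3 autonomy (SD), with log2 changes of -0.16 ± 0.13 in autonomy and -0.07 ± 0.15 in turnover. Psmd4 had 0.10 ± 0.13 in autonomy and -0.15 ± 0.14 in turnover, and Psmd8, a lid subunit, 0.16 ± 0.12 and 0.25 ± 0.13 in the same order. In turnover all DP libraries exceeded all DN3 libraries for Psmd8, against 15.1% of genes that did so. Psmd9, a chaperone of the base, overlaps Gm26745 on the opposite strand by 1849 exon bases.

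**Figure D5:**
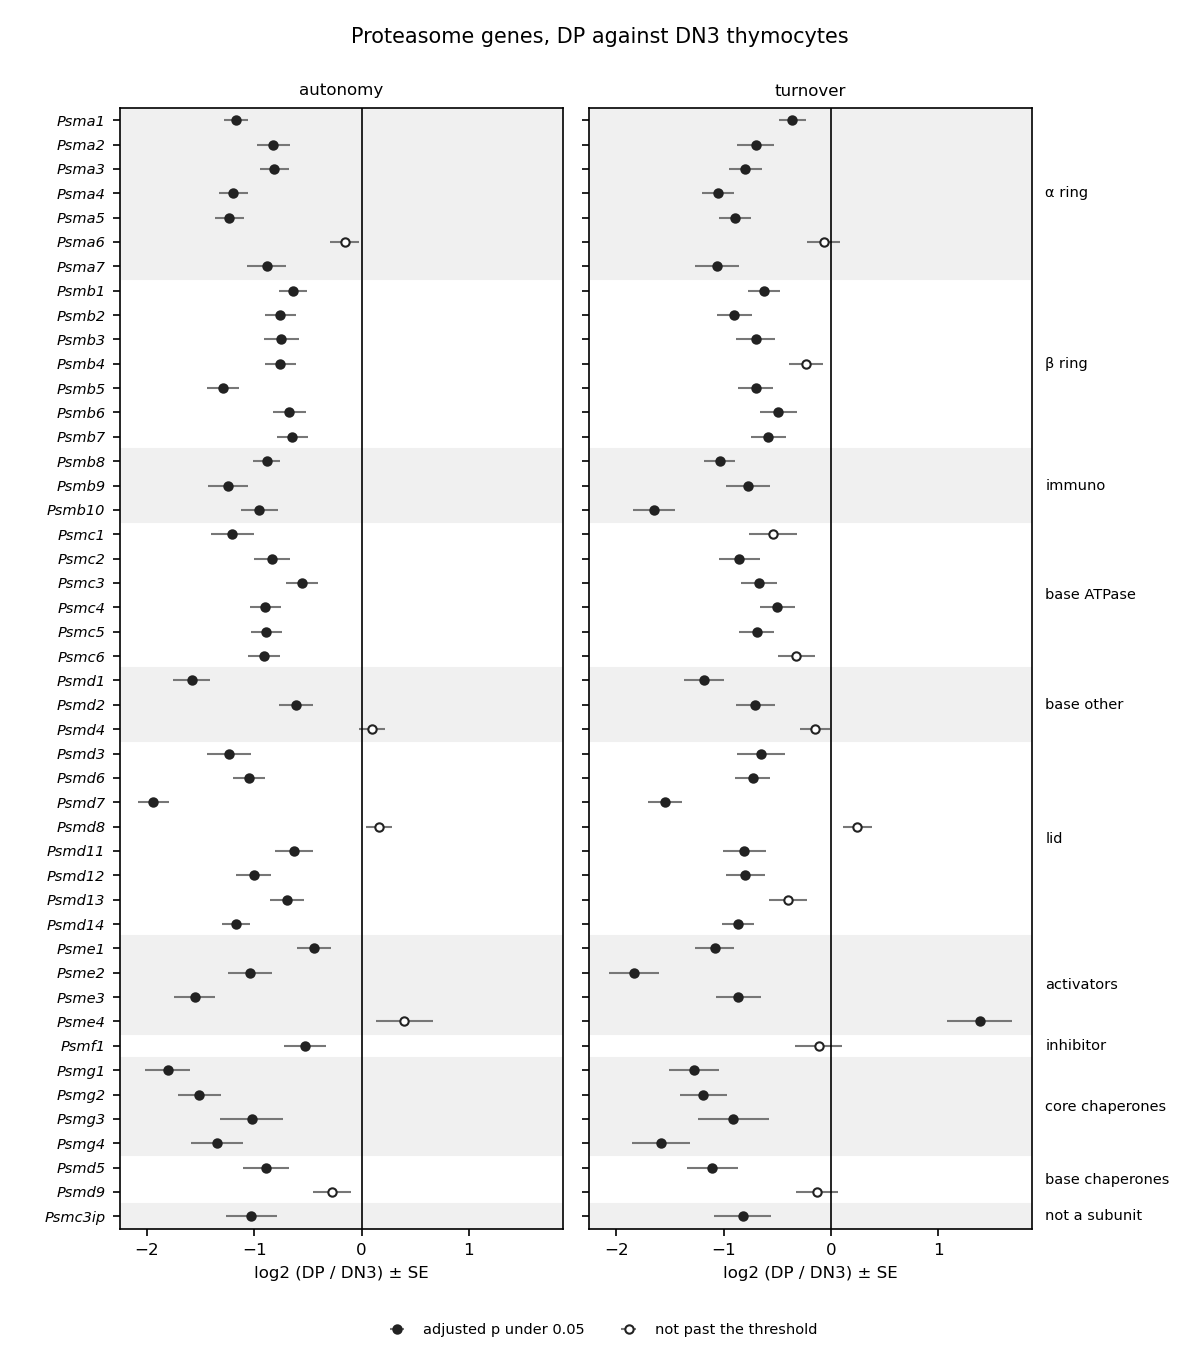
Log2 change of DP over DN3 with its standard error (x axis) for 46 proteasome genes grouped by role (y axis), in autonomy on the left and turnover on the right; filled points passed an adjusted p of 0.05. Nearly all points lie left of 0, with Psma6, Psmd4, Psmd8 and Psmd9 near it in both panels and Psme4 at 1.39 in turnover.

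Within the stage comparison the proliferation list followed the proteasome genes in autonomy, where 21 of 21 genes were lower in DP, and not in turnover, where 9 were lower, 2 higher and 10 did not pass, with a median log2 change of 0.00 and 11 of 21 above 0. The part of proliferation in the proteasome values was not tested. The turnover calls depended on counting the A and B libraries apart: with them summed 25 members were called, 24 lower and 1 higher, against 17.6% of all genes. Without library RP1141B of DN3 turnover 34 were called in turnover (30.5% of all genes), and without RP1140B of DN3 turnover 38 (33.4%). In autonomy 4 of 5 tested macrophage markers and 2 of 5 tested dendritic cell markers were called higher in DP, against 23.7% of all genes. Sparse markers can pass the count filter through the libraries where they are high, so these calls are no test. The part of macrophages and dendritic cells in the immunoproteasome values was not tested.

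Psmb11, the thymoproteasome subunit of cortical epithelium, had 52 reads in library RP1138 of DP autonomy (7.85 CPM), 8 in RP1141A of DP turnover, 8 in RP1135 of DN3 autonomy, 2 in RP1141B of DN3 turnover and none in the other libraries, and it did not pass the count filter. Of the 8 fixed markers of cortical epithelium, Krt5 had no read in any library, and Foxn1 and Cxcl12 stayed at or below 1.01 CPM. Prss16 and Krt8 were highest in library RP1141B of DP turnover, at 15.9 and 13.4 CPM, and at most 2.11 and 0.410 CPM elsewhere. Apart from that library and RP1138 of DP autonomy, Epcam and Ly75 made up nearly all of the summed level of the list, with Epcam at 2.42 to 6.37 CPM in DP autonomy, 4.16 to 13.5 CPM in DP turnover, 28.8 to 82.1 CPM in DN3 autonomy and 90.1 to 113 CPM in DN3 turnover. Psma8, the testis α subunit that takes the place of Psma7 in germ cells, had 0, 4.67, 0, 0 and 0 CPM in DP autonomy, no read in the 4 libraries of DP turnover, 14.0, 1.93, 6.25, 0.587 and 0 CPM in DN3 autonomy and 2.69, 5.80, 6.81 and 4.02 CPM in DN3 turnover. In turnover its level was at least 18.4-fold lower in DP when DP libraries are set to a floor of 3 counts each. It passed the count filter through the libraries that held reads, so its call there is no test. The difference between DP and DN3 in autonomy did not pass (adjusted p = 0.254).

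Psmd10, the base chaperone also called gankyrin, had 67 reads over the 5 libraries of DP autonomy, 78 over the 4 of DP turnover, 23 over the 5 of DN3 autonomy and 27 over the 4 of DN3 turnover, and its DP over DN3 difference did not pass in either condition (adjusted p = 0.517 in autonomy and 0.263 in turnover). Psme2b, a copy of Psme2, had 1 read in DN3 autonomy and 1 in DN3 turnover, and reads from near-identical sequence may have been left uncounted or assigned to Psme2.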

How the data were processed

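The deposited table holds whole-number read counts per Ensembl gene for 18 libraries of sorted thymocytes, with no normalization, made by the authors. The tools named in the submitters' processing notes are FastQC, HISAT2 (aligner), featureCounts (counter) and DESeq2, with the build mm10 (GRCm38); the sources used here give no settings or versions. Cells were sorted into lysis buffer, and polyadenylated RNA captured with oligo-dT beads went into Pico Nextera libraries, per the labels' protocols. In the authors' deposited DESeq2 table of each cell type, the log2 fold changes, their standard errors, the Wald score and the p-values are the authors' own, and the mean expression signal is a scaled mean over libraries. These tables gave the gene names and were otherwise used to compare calls. Genes were matched by Ensembl identifier.

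The counts were tested with edgeR 4.0.16 (R 4.3.3): TMM scaling, filterByExpr, quasi-likelihood test, Benjamini-Hochberg adjustment over all genes tested, threshold 0.05. Autonomy was compared with turnover within the 9 libraries of a cell type, and the difference of the effects and DP over DN3 in a model of all 18. CPM are TMM-scaled; values per kilobase use the longest principal transcript of GENCODE M21, which also gave coordinates. Standard errors were taken from the log2 change and its F statistic, and intervals of log2 changes are 1.96 standard errors either side. The tests were checked on simulated counts, drawn independently for each library with the same spread for all genes. Such counts cannot show how the tests behave if the A and B libraries of a number depend on each other. Alternatives were other scalings, no filter, DESeq2 1.42.0, limma voom 3.58.1, summing of A and B libraries, leaving out each library and a replicate block. Depth ran from 5032273 to 24191044 counts; the floor of 3 counts covers counting error only. Genes given per library were the catalytic pairs, activators, the inhibitor, Psmb11, Psma8 and, per comparison, up to 5 called genes in each direction with the smallest adjusted p; every called member is named, and of each further list at most 3 genes per direction. A few others were named after their values were seen (Psma6, Psmd4, Psmd8, Psmd9, Psmd10, Psmg1 and Tap1). The members and lists were chosen with earlier results of these data known.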

Additional observations from a re-analysis of the deposited data

Results flagged for a closer look

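The autonomy effect of Psma1 differed between the cell types, with a value in DP minus that in DN3 of -0.815 on the log2 scale in the model of all 18 libraries. The call was lost with the replicate block.

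In each group of 4 or 5 libraries the gap between the highest or lowest library and its neighbour was compared with the range of the group; 197 combinations of member and group were examined and 21 were marked, in 14 genes, and chance marks about 1 in 20. Of those, 9 are of the sparse members. Psmb11 was at 7.85 CPM in DP autonomy RP1138, 0.490 in DP turnover RP1141A, 0.794 in DN3 autonomy RP1135 and 0.164 in DN3 turnover RP1141B, with 0 in the others of each group. Psma8 was at 4.67 CPM in DP autonomy RP1135, with 0 in the others. Psmd10 was at 2.74 CPM in DP autonomy RP1137 and 6.26 in DP turnover RP1140A. Psme2b was at 0.0522 CPM in DN3 autonomy RP1138 and 0.0819 in DN3 turnover RP1141B, 1 read each.

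Among DP autonomy libraries RP1135 was highest for Psma2 (1065 CPM, others 716 to 752) and Psma7 (801 CPM, others 505 to 588), RP1137 lowest for Psma5 (222 CPM, others 267 to 284) and RP1138 lowest for Psmb10 (82.3 CPM, others 121 to 136). Among DP turnover libraries RP1140A was highest for Psmb8 (921 CPM, others 709 to 728) and RP1140B for Psmd1 (331 CPM, others 194 to 199).

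Among DN3 autonomy libraries RP1134 was highest for Psme4 (175 CPM, others 76.7 to 96.3), RP1137 highest for Psma6 (1037 CPM, others 907 to 942) and RP1138 lowest for Psmb8 (1534 CPM, others 1877 to 1967). Among DN3 turnover libraries RP1140B was lowest for Psma2 (709 CPM, others 1058 to 1104), Psmb9 (156 CPM, others 186 to 191) and Psmd8 (230 CPM, others 285 to 294), and it was also the library with the lowest sum of all members in its group.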

How the results depend on the processing

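The number of members called between autonomy and turnover in DN3 cells was 14 (14.9% of all genes), 25 with DESeq2 (21.3%) and 1 with the A and B libraries summed (4.51%), and it ran from 6 to 17 when 1 library was left out. In DP cells it was 2 (1.72% of all genes), 10 with DESeq2 (7.12%), 6 with limma voom (4.20%) and 0 with A and B summed (0.142%), and 0 to 3 with 1 library left out. For the difference between the autonomy effects it was 1 (5.49% of all genes), 0 with the replicate block of library numbers (2.53%), where the value of Psma1 was -0.77 against -0.82, and 1 to 2 with 1 library left out. For DP over DN3 in turnover it was 38 (34.9% of all genes), 25 with A and B summed (17.6%) and 32 to 38 with 1 library left out, and in autonomy 41 and 39 to 42. Summing leaves 2 turnover samples per cell type; the cause of the other shifts was not tested. No called log2 change turned its direction under any alternative run. Over single genes 4870 values stayed on the same side of the threshold, 147 no longer passed and 59 newly passed.

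The sources used here do not say whether DN3 and DP libraries of the same number share a graft. Over 8 same-numbered pairs the correlations of deviations from the group means ran from 0.00118 to 0.0521, none over 0.1. Of these DN3 libraries 3 correlated best with their own number. Weak correlations between different cell types cannot show whether the samples are paired. With the replicate block 34 members were called between DP and DN3 in turnover and 39 in autonomy. Upper-quartile scaling moved the median of all genes in the DN3 comparison to -0.11 and that of the members to 0.39. With plain CPM in place of TMM scaling the log2 difference of the summed CPM of all members between DP and DN3 in autonomy was -0.62, against -0.85, and that of the immunoproteasome genes -0.70, against -0.92. The share of members with the interferon-stimulated response core was 2.38% in the shorter promoter window, against 11.9%. Depth limits the genes with few reads: Psmb11 and Psme2b passed no filter, and Psmd10 had at most 57 reads in a library.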

Other observations

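Several genes that work beside the proteasome were also lower in DP than in DN3 cells. Of 12 further subunits and cofactors 6 were lower in autonomy (25.2% of all genes were) and 4 in turnover (19.1%), and none was higher. Usp14 had a log2 change of -1.70 ± 0.23 in autonomy and -1.28 ± 0.25 in turnover (adjusted p = 3.35e-06 and 0.000534), and Uchl5, the other deubiquitinase that docks on the base, -1.66 ± 0.16 and -1.17 ± 0.18 (adjusted p = 7.26e-08 and 4.94e-05). Adrm1, the ubiquitin receptor to which Uchl5 binds, had -0.58 ± 0.17 in autonomy and -0.54 ± 0.19 in turnover. Of 9 shuttle and Vcp genes 5 were lower in autonomy and 4 in turnover.

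In class I antigen processing 5 of 9 genes were lower in DP and 1, Tapbpl, was higher in either condition. B2m had log2 changes of -1.12 ± 0.21 in autonomy and -1.99 ± 0.24 in turnover (adjusted p = 0.000213 and 4.44e-06). Of the interferon regulators 5 of 8 were higher in DP in autonomy, Ifngr1, Irf2 and Stat2 among them, and Irf1 was lower in both conditions, with log2 changes of -0.73 ± 0.21 in autonomy and -0.81 ± 0.23 in turnover.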
